A study of Mus musculus with 14 samples.

Results

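The 10 genes described here are the core regulators of mitochondrial biogenesis, chosen by name as listed rows of both deposited count tables: Ppargc1a, Ppargc1b, Esrra, Esrrg, Ppara, Nrf1, Gabpa, Tfam, Polrmt and Tfb2m. All 10 of 10 were found among the 53735 gene symbols of each table, and all 10 passed the filter on low counts in both. They were measured by RNA-seq in 14 hearts of male C57BL/6 mice. The conditional knockout (cKO) mice had the genotype Fam210afl/fl, alphaMHCMCM/+, and the control mice had the genotype alphaMHCMCM/+, so cKO and control hearts shared the MerCreMer transgene and the tamoxifen given to both. Hearts were collected about 5 weeks after tamoxifen (early, 4 cKO and 4 control hearts), a time at which the submitters describe heart function as normal. Further hearts were collected about 10 weeks after tamoxifen (late, 3 cKO and 3 control hearts), a time described as one of severe dysfunction. Cre was driven by the αMHC (Myh6) promoter, which is active in cardiomyocytes, while RNA came from whole hearts, so the values also hold RNA of cells that kept Fam210a. Fam210a encodes a mitochondrial inner membrane protein.

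As background, mitochondrial biogenesis is run from the nucleus. The coactivators PGC-1α (Ppargc1a) and PGC-1β (Ppargc1b) have no DNA-binding domain of their own and work by docking on transcription factors, chiefly the estrogen-related receptors ERRα (Esrra) and ERRγ (Esrrg), PPARα (Ppara), NRF1 and the ETS factor GABPA. These factors switch on nuclear genes of fatty acid oxidation, the citric acid cycle and the respiratory chain, and also Tfam, Polrmt and Tfb2m, whose proteins transcribe the mitochondrial genome: POLRMT is the mitochondrial RNA polymerase, TFAM bends and packages the DNA at the promoters, and TFB2M melts the promoter. The heart depends on this network for oxidative capacity, and PPARα and the ERRs keep adult cardiomyocytes burning fat.

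The promoter stretches of 3 members are shown because Ppargc1a and Polrmt carried the calls described below and Esrra had the highest level per length. They were taken from RefSeq (GRCm38.p6), run 5′ to 3′ along the gene's strand from 150 to 10 bases before the annotated start, with capitals marking each match to the NRF1 core GCGCATGC or the GABPA/ETS core CCGGAAG on either strand.
Ppargc1a, chr5:51567735-51567875, minus strand: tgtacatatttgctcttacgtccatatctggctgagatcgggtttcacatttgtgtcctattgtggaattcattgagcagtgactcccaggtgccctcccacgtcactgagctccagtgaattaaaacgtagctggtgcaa
Polrmt, chr10:79746591-79746731, minus strand: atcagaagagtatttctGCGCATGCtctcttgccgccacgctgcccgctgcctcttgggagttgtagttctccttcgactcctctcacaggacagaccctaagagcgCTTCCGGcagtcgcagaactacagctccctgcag
Esrra, chr19:6921818-6921958, minus strand: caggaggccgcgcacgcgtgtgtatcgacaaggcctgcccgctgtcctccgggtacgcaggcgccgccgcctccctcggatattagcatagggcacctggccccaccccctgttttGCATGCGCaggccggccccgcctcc

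The Polrmt stretch holds an NRF1 core whose first base lies 133 bases before the start, and a GABPA/ETS core on the other strand at 43 bases before it. The Esrra stretch holds 1 NRF1 core, on the opposite strand at 34 bases before the start, and the Ppargc1a stretch holds neither motif. RefSeq windows of 300 bases, from 250 bases before to 50 bases after a start, were given for 9 of the 10 members, all but Ppargc1b, in 13 windows. Both strands were searched for 6 motifs. The NRF1 core was found in 4 of the 13 member windows, those of Tfb2m, Polrmt, Ppara and Esrra, and in 2.71% of all 32851 windows. In Ppara 2 matches on opposite strands overlapped. The GABPA/ETS core was found in 3 of the 13 member windows, those of Tfam, Polrmt and Gabpa itself, and in 8.86% of all windows. The ERR site AAGGTCA (4.72% of all windows) and the cyclic AMP response element TGACGTCA (1.79%) were in no member's window, the ATF/CEBP composite TGATGNAA (3.97%) was in that of Esrra, and the YY1 site AAGATGGC (2.75%) in that of Gabpa. The Ppargc1a window was 48.7% G or C with 5 CpG pairs, against 52.0% and 21 for Polrmt and 66.0% and 25 for Esrra, where the median window had 52.7% and 7. Apart from the Ppargc1a window and 1 Nrf1 window with 2 CpG pairs, the members' windows held 15 to 43. The NRF1 and GABPA/ETS cores each hold a CpG pair, and their share among windows of like CpG content was not computed. These matches describe the letters in these windows only.

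The hearts were first compared as libraries. Totals were 15657298 to 19466469 counts per heart early and 29989076 to 35750964 late. Fam210a stood at 135 to 158 CPM (read counts relative to the TMM-scaled library total) in early cKO hearts and 165 to 178 in early controls, and at 64.6 to 70.8 CPM in late cKO hearts and 120 to 134 in late controls, so every cKO heart was below every control of its time. Early cKO replicate 4 has the control genotype in its genotype field but is a knockout by title and description; its 150 CPM of Fam210a lay within the range of the other early cKO hearts. Of the late cKO hearts, replicate 3 was the least like its mates: the chi-square per gene was 107 and 101 against them, and 21.5 between them. Cardiomyocyte markers were high in every heart, with a summed level of 56800 to 61700 CPM in early cKO hearts and 64100 to 70900 in early controls, and 61800 to 73300 in late cKO hearts and 65300 to 74700 in late controls. Of the 8 cardiomyocyte markers, none passed early, and late Actn2 rose (0.93) while Tnni3 (-1.22), Pln (-1.76) and Myl2 (-1.0) fell. Late, 5 of 6 endothelial, 3 of 6 fibroblast, 4 of 6 macrophage and 3 of 4 mural cell markers fell, where 33.2% of all genes tested fell, and the mural marker Acta2 rose (2.80). The endothelial sum was 418 to 522 CPM in cKO hearts and 854 to 1040 in controls, the fibroblast sum 627 to 836 CPM in cKO hearts and 968 to 1260 in controls, and the macrophage sum 112 to 134 CPM in cKO hearts and 182 to 192 in controls. The mural sum was higher, at 1510 to 2250 CPM in cKO hearts and 1090 to 1180 in controls. Acta2 alone had a mean of 1411 CPM in cKO hearts and 203 in controls, while the other 3 mural markers fell. Fewer cells of a type and less RNA per cell cannot be told apart in whole-heart RNA. The atrial marker Bmp10 reached 165 CPM in early cKO replicate 2 and 104 CPM in late control replicate 3. Bmp10 stood at 0.421 to 0.754 CPM in late cKO hearts and 0 to 104 CPM in late controls (-5.98, edgeR adjusted p = 0.0324). The groups overlapped, and the late control mean of 34.7 ± 60.0 CPM (SD, n = 3) came almost wholly from replicate 3. No loss of Bmp10 in cKO hearts is read from this value. Another atrial marker, Nppa, rose late (3.07, edgeR adjusted p = 0.00174). Myl7, Myl4 and Sln did not pass late. They reached 78.8, 169 and 18.9 CPM in late cKO hearts and 111, 137 and 29.0 in late controls. Acta1, on the skeletal muscle list, rose late (4.32, edgeR adjusted p = 4.92e-06), and the other 4 of that list were not tested. The brown fat marker Ucp1, whose tissue is rich in Ppargc1a, had at most 2 counts in any heart. Cidea, also on the brown fat list, rose late (1.57, adjusted p = 0.000232), and the list summed to 60.9 to 106 CPM in late cKO hearts and 21.6 to 29.9 in late controls. White fat markers summed to 1.77 to 15.4 CPM in early cKO hearts and 0.356 to 2.03 in early controls, and to 0.0569 to 4.76 CPM in late cKO hearts and 0.944 to 18.5 in late controls. The part of these differences in the members' values was not tested.

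Within the hearts, the members covered a wide range of levels per length, compared here as CPM per kilobase of annotated exon. Among the early controls, Esrra was the highest at 26.3 ± 1.78 CPM per kilobase (SD, n = 4), followed by Ppargc1a at 18.8 ± 2.21. Gabpa (9.82 ± 0.695), Tfam (9.51 ± 0.729), Esrrg (8.44 ± 1.05), Ppara (7.88 ± 1.77) and Polrmt (7.59 ± 0.269) formed a middle group in which the means of neighbours in the order differed by less than the sum of their SDs. Tfb2m (5.11 ± 0.179), Ppargc1b (2.52 ± 0.347) and Nrf1 (1.29 ± 0.04) lay below them and apart from one another, so PGC-1α mRNA far exceeded that of PGC-1β. Early cKO hearts also had Esrra (24.6 ± 2.07) and Ppargc1a (12.6 ± 1.76) on top and Ppargc1b (2.70 ± 0.358) and Nrf1 (1.18 ± 0.0639) at the bottom. In late cKO hearts Esrra was again the highest at 21.8 ± 4.40 and Nrf1 the lowest at 1.49 ± 0.0914 (SD, n = 3). Between them, Ppargc1a (8.49 ± 3.46) could not be told apart from Tfam (7.16 ± 0.822), Gabpa (6.98 ± 1.92), Tfb2m (6.49 ± 0.667) and Polrmt (5.28 ± 0.207) by its spread. Late controls again had Esrra (26.6 ± 1.87) and Ppargc1a (11.9 ± 1.73) highest and Nrf1 (1.25 ± 0.0472) lowest.

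**Figure D1:**
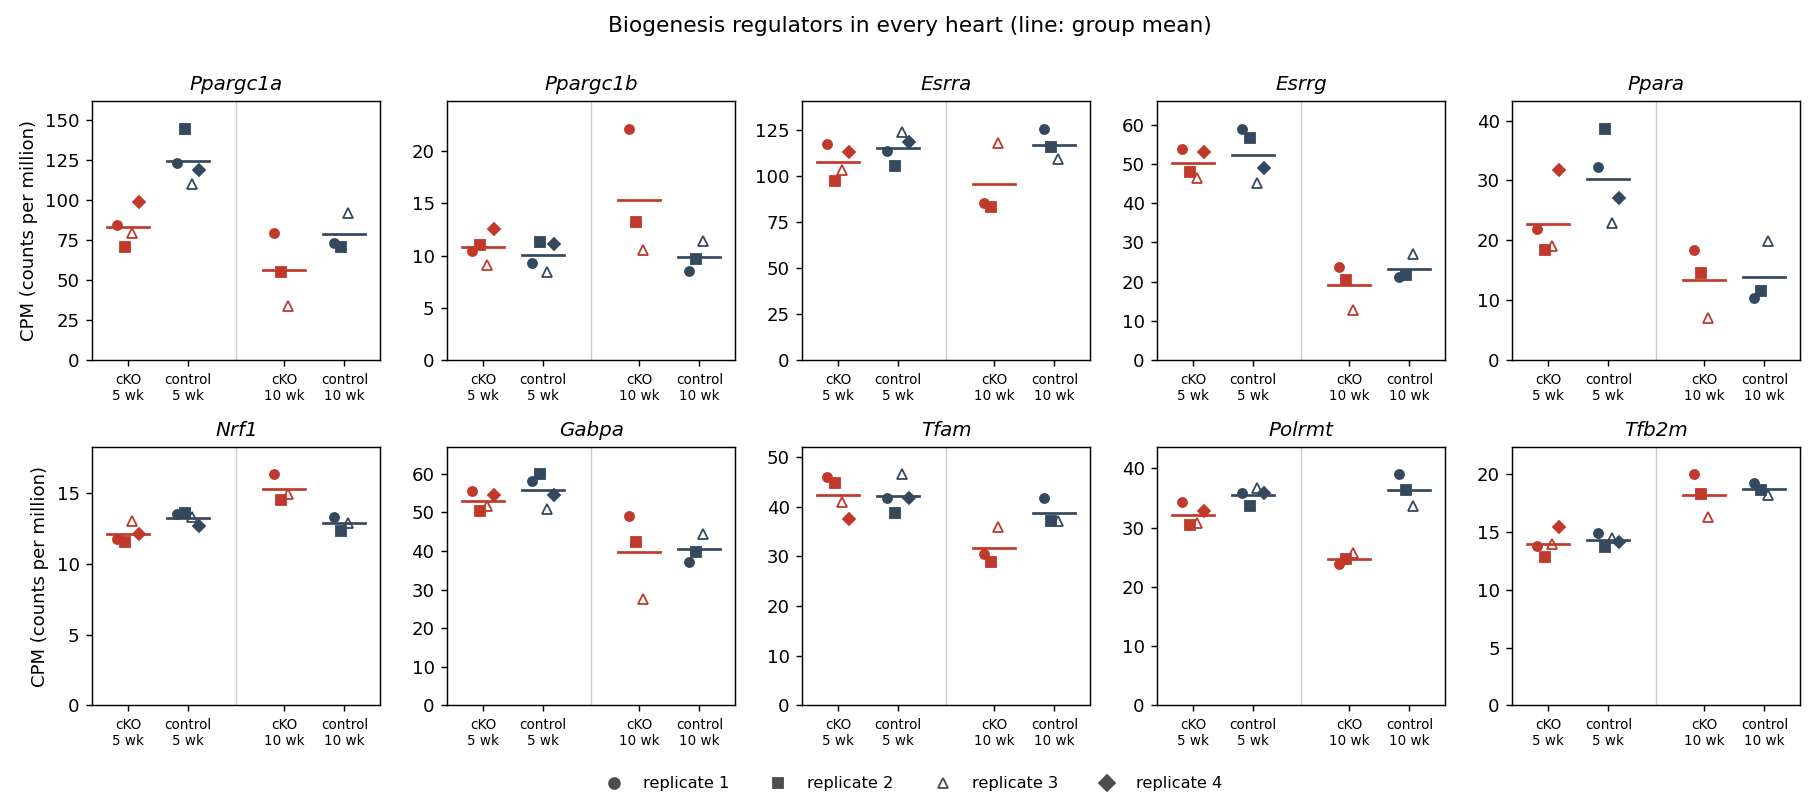
Level of each of the 10 regulators in every heart, in CPM on a linear axis starting at 0, with cKO hearts (red) left of control hearts (blue) at about 5 and about 10 weeks after tamoxifen; marker shapes give the replicate number and lines the group mean. Early Ppargc1a and late Polrmt show cKO hearts below all controls, and the open triangle of late cKO replicate 3 lies far from its mates for several members.

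The early comparison asks what had changed in cKO hearts while heart function was still described as normal. Ppargc1a fell, and it was the single member called: 1 of 10 members passed the test, against 0.613% of all 13529 genes tested (83 genes, of which 13, or 0.0961% of those tested, fell). The other 9 members did not pass. Calls are edgeR quasi-likelihood tests across all genes at a Benjamini-Hochberg adjusted p under 0.05, and intervals are 95% confidence intervals of the log2 fold change, cKO over control.

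Ppargc1a, the coactivator on which the network converges, had 84.3, 70.7, 79.3 and 98.5 CPM in cKO hearts 1 to 4, against 123, 144, 110 and 119 CPM in control hearts 1 to 4. Every cKO heart lay below every control heart, as for 5.65% of all genes tested whose groups did not overlap and 2.68% whose cKO hearts were the lower ones. The nearest were cKO replicate 4 and control replicate 3. Mean ± SD was 83.2 ± 11.6 CPM for the cKO hearts and 124 ± 14.5 CPM for the controls (n = 4 each), a 1.49-fold lower level. This is a log2 fold change of -0.58 (SE 0.10, edgeR adjusted p = 0.0223). The estimate stayed between -0.67 and -0.50 when any single heart was left out, but the call ended without cKO replicate 2 (adjusted p = 0.0727) or 3 (0.0702), or without control replicate 1 (0.0652), 2 (0.0605) or 4 (0.0562). It also ended when all 14 hearts entered 1 fit (-0.58, adjusted p = 0.416). Without cKO replicate 4, the heart with conflicting labels, it was -0.67 (adjusted p = 0.00326), and with that heart counted as a control it was -0.61 (adjusted p = 0.0144). Ppargc1b, the related coactivator, had 10.5, 11.1, 9.07 and 12.5 CPM in cKO hearts, against 9.34, 11.3, 8.46 and 11.1 CPM in controls. The groups overlapped throughout, and the change of 0.10 (SE 0.12, adjusted p = 0.851) had an interval of -0.17 to 0.36.

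Among the nuclear receptors, Ppara had 21.9, 18.4, 19.1 and 31.8 CPM in cKO hearts, against 32.3, 38.6, 22.9 and 27.1 CPM in controls. The cKO replicates 1, 2 and 3 lay below all controls, and cKO replicate 4 lay among the controls. Its log2 fold change of -0.41 (SE 0.18, interval -0.80 to -0.02) did not pass the adjustment (adjusted p = 0.466). Esrra, the most abundant receptor per length, ranged from 97.3 to 117 CPM in cKO hearts and from 105 to 124 CPM in controls. Esrrg ranged from 46.5 to 53.9 CPM in cKO hearts and from 45.1 to 58.9 CPM in controls. Both overlapped: Esrra gave -0.10 (SE 0.07, adjusted p = 0.686) and Esrrg -0.06 (SE 0.09, adjusted p = 0.882).

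Nrf1 and Gabpa, the factors that bind promoters of respiratory chain genes, gave -0.13 (SE 0.07, adjusted p = 0.595) and -0.08 (SE 0.06, adjusted p = 0.748). Nrf1 stood at 11.6 to 13.1 CPM in cKO hearts and 12.7 to 13.6 CPM in controls, and Gabpa at 50.4 to 55.5 CPM in cKO hearts and 51.0 to 59.9 CPM in controls. Of the mitochondrial transcription genes, Tfam had 46.1, 44.8, 40.9 and 37.5 CPM in cKO hearts, against 41.7, 38.7, 46.5 and 41.8 CPM in controls, and its change was 0.0044 (SE 0.08, interval -0.17 to 0.18, adjusted p = 0.993). The hearts of the 2 genotypes were fully mixed for Tfam. Polrmt had 34.4, 30.5, 30.8 and 32.8 CPM in cKO hearts, against 35.8, 33.7, 36.7 and 35.9 CPM in controls; only cKO replicate 1 exceeded a control, and -0.15 (SE 0.07) did not pass (adjusted p = 0.472). Tfb2m, at 12.8 to 15.5 CPM in cKO hearts and 13.7 to 14.9 CPM in controls, gave -0.03 (SE 0.08, adjusted p = 0.936).

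The ratio of 2 members within a heart does not depend on how libraries are scaled, and 4 ratios were compared at each time. The ratio of Ppargc1a to Ppargc1b counts was 8.06, 6.40, 8.74 and 7.86 in early cKO hearts, against 13.2, 12.8, 13.0 and 10.7 in early controls. The groups did not overlap, with a mean log2 ratio of 2.95 ± 0.19 in cKO hearts and 3.63 ± 0.14 in controls (SD, n = 4 each; difference -0.68, exact two-sided permutation p = 0.0286, the smallest possible with 4 against 4, and 0.114 adjusted over the 8 ratio tests). The late ratio was 3.58, 4.14 and 3.21 in cKO hearts, against 8.62, 7.32 and 8.05 in controls, again without overlap. Its mean log2 value was 1.86 ± 0.19 in cKO hearts and 3.00 ± 0.12 in controls (SD, n = 3 each; difference -1.14, exact permutation p = 0.1, the smallest possible with 3 against 3, adjusted p = 0.267). No ratio test could pass after adjustment over the 8 with these numbers of hearts: the smallest adjusted p possible was 0.0571 early and 0.1 late.

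**Figure D2:**
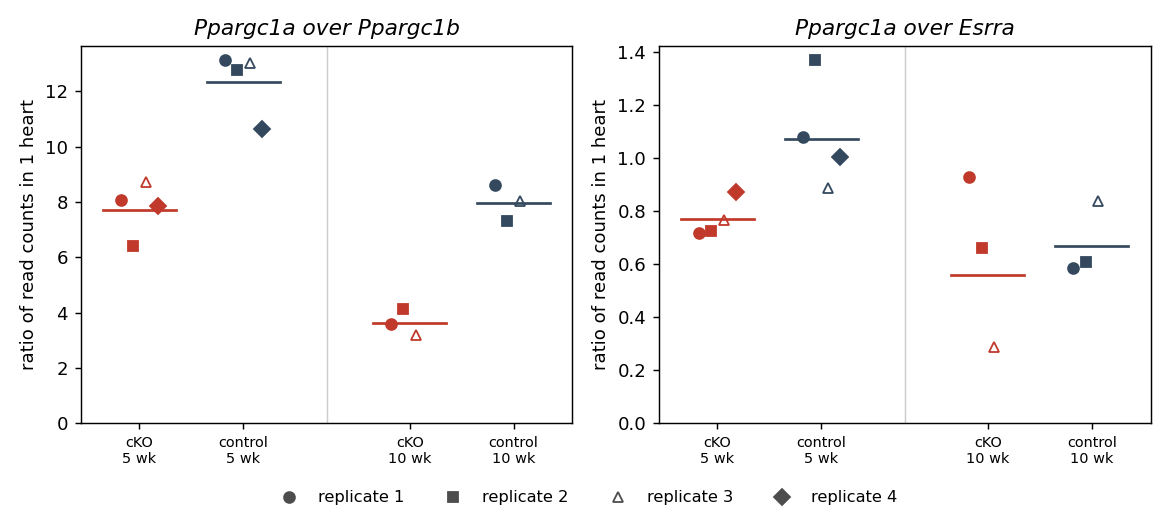
Ratio of read counts of Ppargc1a to Ppargc1b (left) and of Ppargc1a to Esrra (right) in each heart, on linear axes starting at 0. At each time cKO hearts lie left of controls, and lines give the mean log2 ratio of each group, turned back into a ratio. The Ppargc1a to Ppargc1b ratio is lower in all cKO hearts than in all controls of the same time, while the late Ppargc1a to Esrra ratios of the groups overlap.

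Ppargc1a relative to its main partner Esrra gave 0.719, 0.727, 0.768 and 0.871 in early cKO hearts, against 1.08, 1.37, 0.888 and 1.01 in early controls. The early groups did not overlap, with cKO replicate 4 just below control replicate 3 (difference of log2 ratios -0.48, exact permutation p = 0.0286, adjusted p = 0.114). Late, the ratio was 0.930, 0.659 and 0.287 in cKO hearts, against 0.584, 0.609 and 0.838 in controls, where the cKO hearts held both the highest and the lowest value (difference -0.25, exact permutation p = 0.9, and 0.23 without cKO replicate 3). The ratios of Esrrg to Esrra and of Tfb2m to Tfam overlapped between genotypes at both times, with exact permutation p between 0.4 and 0.9.

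The late comparison asks which members differed in cKO hearts once function was described as severely impaired. Polrmt fell, and it was again the single member called: 1 of 10 members passed, against 65% of all 14942 genes tested (4757 genes, 31.8%, rose and 4957, 33.2%, fell). The members' groups did not overlap for 3 of 10, Polrmt, Tfam and Nrf1, against 69.8% of all genes tested. The members' changes were also small beside those of other genes: their median absolute log2 fold change was 0.287, against 0.708 over all genes tested, and all 10 members lay below that median. Early, the same medians were 0.0977 and 0.0869.

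**Figure D3:**
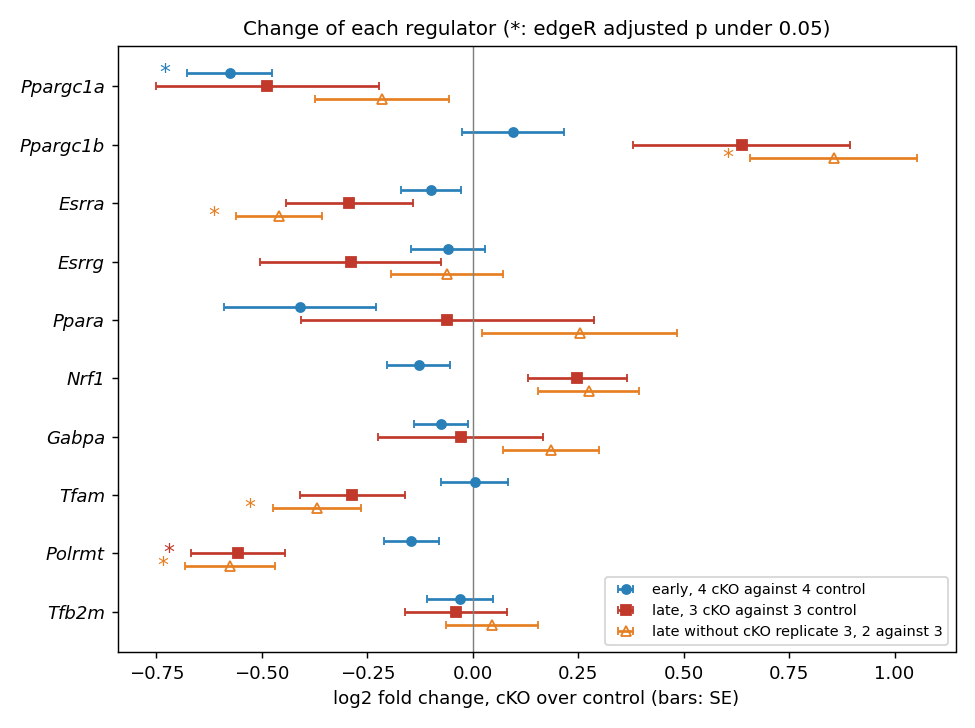
Log2 fold change of each regulator, cKO over control, with its SE, early (blue circles), late (red squares) and late without cKO replicate 3 (orange triangles); a star marks an edgeR adjusted p under 0.05. Polrmt carries a star in both late fits, Ppargc1a carries one early, and Ppargc1b, Esrra and Tfam gain one late without cKO replicate 3.

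Polrmt, the polymerase that transcribes mitochondrial DNA, had 23.8, 24.6 and 25.7 CPM in cKO hearts 1 to 3, against 39.0, 36.4 and 33.7 CPM in control hearts 1 to 3. The cKO hearts lay close together, well below the lowest control, and cKO replicate 3 did not stand apart. Mean ± SD was 24.7 ± 0.970 CPM for the cKO hearts and 36.4 ± 2.63 CPM for the controls (n = 3 each), a 1.47-fold lower level. This is a log2 fold change of -0.56 (SE 0.11, edgeR adjusted p = 0.00188). It passed under all 15 alternatives run, with a log2 fold change between -0.63 and -0.49. Polrmt occupies chr10:79736123-79746581 of GRCm38, minus strand, and shares no exon with another annotated gene.

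Tfam, the packaging and transcription factor of mitochondrial DNA, had 30.5, 28.9 and 35.9 CPM in cKO hearts, against 41.8, 37.2 and 37.1 CPM in controls. The cKO hearts were all below the controls, but cKO replicate 3 came near them, and -0.28 (SE 0.12, interval -0.57 to -0.0047) did not pass (adjusted p = 0.0691). Without that heart Tfam fell by 0.37 (SE 0.105, adjusted p = 0.00806). Tfb2m, which opens the promoter for POLRMT, had 20.01, 18.3 and 16.3 CPM in cKO hearts, against 19.2, 18.6 and 18.2 CPM in controls. Its groups overlapped, with a change of -0.04 (SE 0.12, interval -0.31 to 0.23, adjusted p = 0.793).

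Nrf1 had 16.3, 14.6 and 14.9 CPM in cKO hearts, against 13.3, 12.4 and 12.9 CPM in controls. Every cKO heart was above every control, yet 0.25 (SE 0.12) did not pass (adjusted p = 0.0904). Gabpa had 49.0, 42.4 and 27.6 CPM in cKO hearts, against 37.2, 39.8 and 44.5 CPM in controls, so the cKO hearts held both extremes (-0.03, SE 0.20, adjusted p = 0.909). Gabpa shares 397 of its exon bases (6.98%) with Atp5j on the opposite strand, and the kit did not mark the strand, so reads of that stretch cannot be assigned to 1 of them.

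Ppargc1a had 79.4, 54.9 and 33.7 CPM in late cKO hearts, against 73.3, 70.6 and 91.5 CPM in late controls. Replicate 1 of the cKO hearts lay within the controls, replicate 2 below them and replicate 3 far below, and the change of -0.49 (SE 0.26, interval -1.09 to 0.11) did not pass (adjusted p = 0.135). It was -0.82 and passed without cKO replicate 1 (adjusted p = 0.0112), and was -0.21 without cKO replicate 3 (adjusted p = 0.247), so the late size rested on which cKO heart was kept. Ppargc1b had 22.2, 13.2 and 10.5 CPM in cKO hearts, against 8.50, 9.65 and 11.4 CPM in controls. The cKO replicates 1 and 2 exceeded all controls and replicate 3 lay among the controls (0.64, SE 0.26, interval 0.06 to 1.22, adjusted p = 0.0534). Without replicate 3 it rose by 0.86 (SE 0.20, adjusted p = 0.00222), and without replicate 1 it gave 0.28 (adjusted p = 0.2).

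The receptors also varied within the late cKO group. Esrra had 85.4, 83.3 and 118 CPM in cKO hearts, against 126, 116 and 109 CPM in controls, with cKO replicate 3 among the controls and the other 2 below them (-0.29, SE 0.15, adjusted p = 0.115). Without cKO replicate 3, Esrra fell by 0.46 (SE 0.10, adjusted p = 0.0017). Esrrg had 23.8, 20.5 and 12.8 CPM in cKO hearts, against 21.2, 21.6 and 27.0 CPM in controls (-0.29, SE 0.22, adjusted p = 0.262). Ppara had 18.4, 14.6 and 6.99 CPM in cKO hearts, against 10.4, 11.4 and 19.8 CPM in controls (-0.06, SE 0.35, interval -0.84 to 0.72, adjusted p = 0.889). For Esrrg and Ppara the groups overlapped, with cKO replicate 3 the lowest and control replicate 3 the highest of all 6 late hearts in both. Esrra shares 73 exon bases (1.66%) with Trmt112 on the opposite strand and 91 (2.07%) with the microRNA gene Mir6990 on its own strand.

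Late cKO replicate 3 was far from its mates for most members. Set against the mean of the 2 other cKO hearts on the log2 scale, it differed by -1.17 for Ppara, -0.96 for Ppargc1a, -0.77 for Esrrg, -0.71 for Gabpa and -0.68 for Ppargc1b. It was higher for Esrra (0.48) and Tfam (0.27), and close to its mates for Polrmt (0.09) and Nrf1 (-0.04). Without this heart, 4 of 10 members passed, against 69.7% of all genes tested. Besides Ppargc1b, Esrra and Tfam, whose values without it are given above, Polrmt passed (-0.57, adjusted p = 0.000496), and Nrf1 gave 0.28 (adjusted p = 0.0582). Esrrg gave -0.06 (adjusted p = 0.697), while Ppara at 0.25 (adjusted p = 0.344) and Gabpa at 0.19 (adjusted p = 0.164) had the other sign.

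Over all genes, the hearts of 1 group also differed along transcript length. Across 11038 genes of the late table, the deviation of a heart from its mates correlated with annotated exon length at Spearman's rho of 0.48, 0.47 and -0.6 in cKO hearts 1 to 3 and -0.46, -0.084 and 0.54 in control hearts 1 to 3. Across 11054 genes of the early table, rho was 0.027, -0.096, -0.2 and 0.23 in cKO hearts 1 to 4. In early control hearts 1 to 4 it was 0.21, 0.36, -0.46 and 0.078. Genes are not independent replicates, so no p is given. In late cKO replicate 3 and late control replicate 1, short transcripts were therefore relatively high, and in late cKO replicates 1 and 2 and late control replicate 3 long ones were. The cKO over control change itself had a rho of 0.013 with length late and 0.0027 early. The members followed their own exon lengths only in part in late cKO replicate 3. Nrf1, with 10282 exon bases the longest, was close to its mates. Ppargc1a (6592 bases), Esrrg (6208) and Gabpa (5687) were far below them, as were Ppara (3836) and Ppargc1b (3990). Esrra (4387) and Tfam (4438) were above them. Across hearts, the slope of log2 CPM on log2 exon length was 0.192, 0.174 and -0.0694 in late cKO hearts and -0.0025, 0.0567 and 0.140 in late controls.

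**Figure D4:**
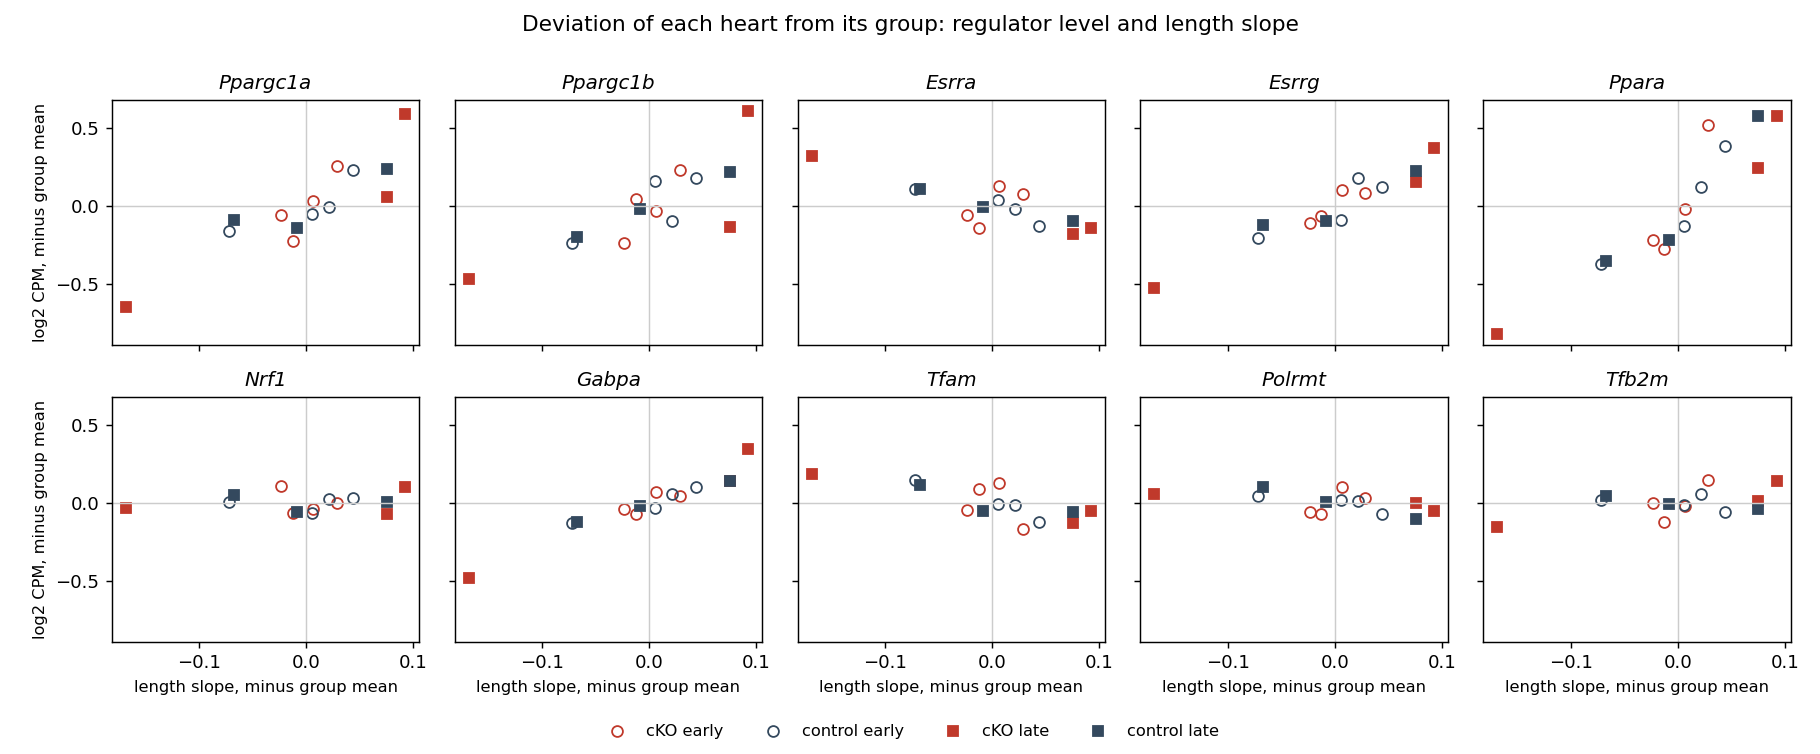
For each regulator, the level of each heart minus its group mean (log2 CPM, vertical) against the slope of log2 CPM on log2 exon length in that heart minus its group mean (horizontal), with open circles early, filled squares late, cKO hearts red and controls blue. Ppargc1a, Ppara, Esrrg and Gabpa lie low in late cKO replicate 3 (red square, far left) and high at the right, Esrra and Tfam lie the other way round, and Polrmt and Nrf1 stay near 0.

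With that slope as a covariate, added after the data were seen, 8 of 10 members passed late, against 76.3% of all genes tested. The slope was computed from the same counts that were tested, and the late fit had 6 hearts. On the log2 scale, Ppargc1a fell by 0.68 (adjusted p = 0.000698), Polrmt by 0.54 (adjusted p = 7.52e-05), Esrrg by 0.43 (adjusted p = 0.00099), Ppara by 0.31 (adjusted p = 0.0398), and Esrra and Tfam each by 0.25 (adjusted p = 0.00388 and 0.00717). Ppargc1b rose by 0.50 (adjusted p = 0.0187) and Nrf1 by 0.24 (adjusted p = 0.0315). Gabpa and Tfb2m did not pass. When late cKO replicate 3 was left out instead, Ppargc1a (-0.21), Esrrg (-0.06) and Ppara (0.25, the other sign) did not pass. Their late values therefore depended on how that heart was handled. Nrf1 (0.28) did not pass without that heart either, while Polrmt, Esrra, Tfam and Ppargc1b passed both ways. Of these, only Polrmt passed in the main late fit. Among the 15 late alternatives run, Polrmt passed in 15, Ppargc1b in 7, Tfam in 5 and Esrra in 4. With the slope as a covariate, early Ppargc1a gave -0.57 (adjusted p = 0.0109) and no other member passed early. What made the slopes differ between hearts was not tested.

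Whether a member's change differed between the times was tested as the late change minus the early change over all 14 hearts. The times come from separate tables, so levels were not compared between them. The difference passed for 2 of 10 members, Polrmt and Nrf1, against 61.2% of all 14555 genes tested (29.8% with the higher change late and 31.3% with the lower). Polrmt gave -0.39 (SE 0.11, adjusted p = 0.00617), its late change being the lower one, and Nrf1 gave 0.39 (SE 0.12, adjusted p = 0.00819), with -0.13 early and 0.25 late. Nrf1 was lower in 3 of 4 early cKO hearts than in all early controls and higher in all late cKO hearts than in all late controls. For Ppargc1a the late change minus the early one was 0.10 (SE 0.29, adjusted p = 0.77), so its call early and not late is no sign of a difference between times. Ppargc1b gave 0.56 (SE 0.29, adjusted p = 0.106) and Tfam -0.27 (SE 0.14, adjusted p = 0.106). Without late cKO replicate 3, Ppargc1b (0.76, adjusted p = 0.0137), Esrra (-0.36, adjusted p = 0.0141) and Tfam (-0.37, adjusted p = 0.0186) passed as well.

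The genes whose pattern over the 14 hearts was most like that of Ppargc1a, after each heart was set against the mean of the controls of its own table, were Birc2 (Pearson's r 0.943), Mypn (0.913), Lama5 (0.91), Nebl (0.907) and Cnnm3 (0.904), out of 8615 genes compared. None of these 5 passed the test at either time. Among the members, Ppara (r 0.825, rank 48), Esrrg (0.783, rank 91) and Gabpa (0.776, rank 102) were near the top of that order, while Ppargc1b (0.137), Esrra (0.0528), Nrf1 (0.0574) and Tfam (-0.0468) were not. The points share their libraries and the differences in length slope described above, so these values are a description with no test.

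The pathway around the members was described by 7 lists of coregulators, partners, machinery and targets. Early, 1 of 128 genes tested in these lists passed (0.781%, against 0.613% of all genes tested), the growth transcription factor Myc, which has been linked to mitochondrial gene programmes. Myc had 6.78, 8.56, 7.93 and 4.61 CPM in cKO hearts, against 2.51, 2.23, 2.12 and 3.50 CPM in controls, so the groups did not overlap (log2 fold change 1.42, SE 0.21, adjusted p = 0.00873). Late, when 65% of all genes tested passed, Myc had 41.1, 35.9 and 30.9 CPM in cKO hearts, against 2.83, 4.37 and 3.66 CPM in controls (3.31, SE 0.19, adjusted p = 1.37e-06). Of all named genes of the coregulator list it had the largest change at both times.

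Among the 27 coregulators and upstream regulators of PGC-1, 9 rose, 8 fell and 10 did not pass late (63% called, against 65% of all genes tested), with a median log2 fold change of -0.0663, against -0.017 over all genes tested. Prkab2, a β subunit of the energy sensor AMPK, stood at 360 ± 53.5 CPM in late cKO hearts and 53.0 ± 2.82 CPM in late controls (SD, n = 3 each; 2.76, adjusted p = 9.16e-07), and Prkag2, an AMPK γ subunit, rose by 1.13 (adjusted p = 2.93e-05). The AMPK subunits of the list did not move together. Prkaa2 rose by 0.53 (edgeR adjusted p = 0.0173) and the γ subunit Prkag3 fell by 1.92 (edgeR adjusted p = 0.000305). Prkaa1, Prkab1 and Prkag1 did not pass. Perm1, a muscle coregulator that acts with ERRα and PGC-1α, had 128, 114 and 94.4 CPM in late cKO hearts, against 350, 330 and 360 CPM in late controls (-1.63, SE 0.14, adjusted p = 1.13e-05). Of 14 nuclear receptor partners and GABP subunits, 2 rose and 8 fell late (71.4% called), with a median of -0.546. The retinoid X receptors Rxrg (-1.24, adjusted p = 4.16e-05) and Rxra (-0.56, adjusted p = 0.00179), which pair with PPARα, fell, as did the clock repressor Nr1d1 (-1.60, adjusted p = 1.23e-05), while the thyroid hormone receptor Thra rose (1.20, adjusted p = 1.77e-05). Rxrb did not pass (0.09, edgeR adjusted p = 0.483), and the thyroid hormone receptor Thrb fell (-0.74, edgeR adjusted p = 0.0165). Exons shared with other genes were looked up for the members only, not for genes of the lists.

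Of 22 genes of mitochondrial transcription and DNA maintenance, 1 rose and 10 fell late (50% called, against 65% of all genes tested), with a median of -0.532. Mterf2, of the mitochondrial transcription termination factor family, had 5.09, 5.00 and 5.38 CPM in late cKO hearts, against 23.6, 19.9 and 18.9 CPM in late controls (-2.01, SE 0.14, adjusted p = 4.06e-06). The mitochondrial exonuclease Mgme1 fell by 1.37 (adjusted p = 4.5e-05). The kinases that salvage deoxynucleosides in mitochondria parted, with Tk2 at 1.0 (adjusted p = 0.000202) and Dguok at -0.99 (adjusted p = 0.000272). Without late cKO replicate 3, 3 genes of this list rose, Tk2, Dna2 (0.80) and Lig3 (0.29), and 11 fell. Of 19 tested genes of mitochondrial RNA processing and stability, 5 rose and 7 fell (63.2% called), with a median of -0.146. Pde12, which trims poly(A) tails of mitochondrial RNA, rose by 1.10 (adjusted p = 8.03e-05) and Elac2, which cuts tRNA 3′ ends, by 0.71 (adjusted p = 0.00105). Fastkd1, of a family of mitochondrial RNA regulators, fell by 1.0 (adjusted p = 0.000166) and Ptcd3, a protein of the small mitochondrial ribosome subunit, by 0.78 (adjusted p = 0.000221).

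Of 21 PPARα and PGC-1 fatty acid targets, 6 rose, 8 fell and 7 did not pass late (66.7% called, against 65% of all genes tested), with a median of -0.149. Angptl4, a secreted inhibitor of lipoprotein lipase, rose by 2.98 (adjusted p = 5.79e-06), and Acot2, a mitochondrial acyl-CoA thioesterase, by 2.24 (adjusted p = 1.81e-06). Cpt2, the inner membrane carnitine palmitoyltransferase, fell by 1.73 (adjusted p = 1.03e-05). Early, none of the 21 passed; Angptl4 had 12.4, 22.3, 12.5 and 2.78 CPM in cKO hearts, against 3.05, 4.59, 4.17 and 4.03 CPM in controls. The cKO replicates 1, 2 and 3 were above all controls, and cKO replicate 4, the heart with conflicting labels, was below them. Without it 3 of the 21 rose early, Angptl4 (1.99, adjusted p = 0.000546), Pdk4 (1.13, adjusted p = 0.00357) and Ucp3 (0.75, adjusted p = 0.0452), and in the partner list Klf15 fell by 0.77 (adjusted p = 0.00905), against 1.32% of all genes tested.

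Of 19 ERR and PGC-1 energy targets, 1 rose, 10 fell and 8 did not pass late (57.9% called, against 65% of all genes tested), with a median of -0.458. The mitochondrial creatine kinase Ckmt2 had 181, 182 and 168 CPM in late cKO hearts, against 2334, 2029 and 1917 CPM in late controls (-3.56, SE 0.14, adjusted p = 2.6e-07). Myoglobin (Mb) fell by 2.62 (adjusted p = 5.18e-06), the citric acid cycle gene Idh3b by 1.14 (adjusted p = 0.000132) and the complex I gene Ndufs1 by 1.11 (adjusted p = 4.61e-05). The mitochondrial fusion gene Mfn2 was the 1 that rose (0.48). Early, all 19 log2 fold changes of this list were negative, between -0.18 and -0.04, and none passed the test. Their early median was -0.0892, against 0.00033 over all genes tested. Of the 8 cardiomyocyte markers, 7 were also negative early, with a median of -0.148 and none past the test, and their part in these values was not tested.

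**Figure D5:**
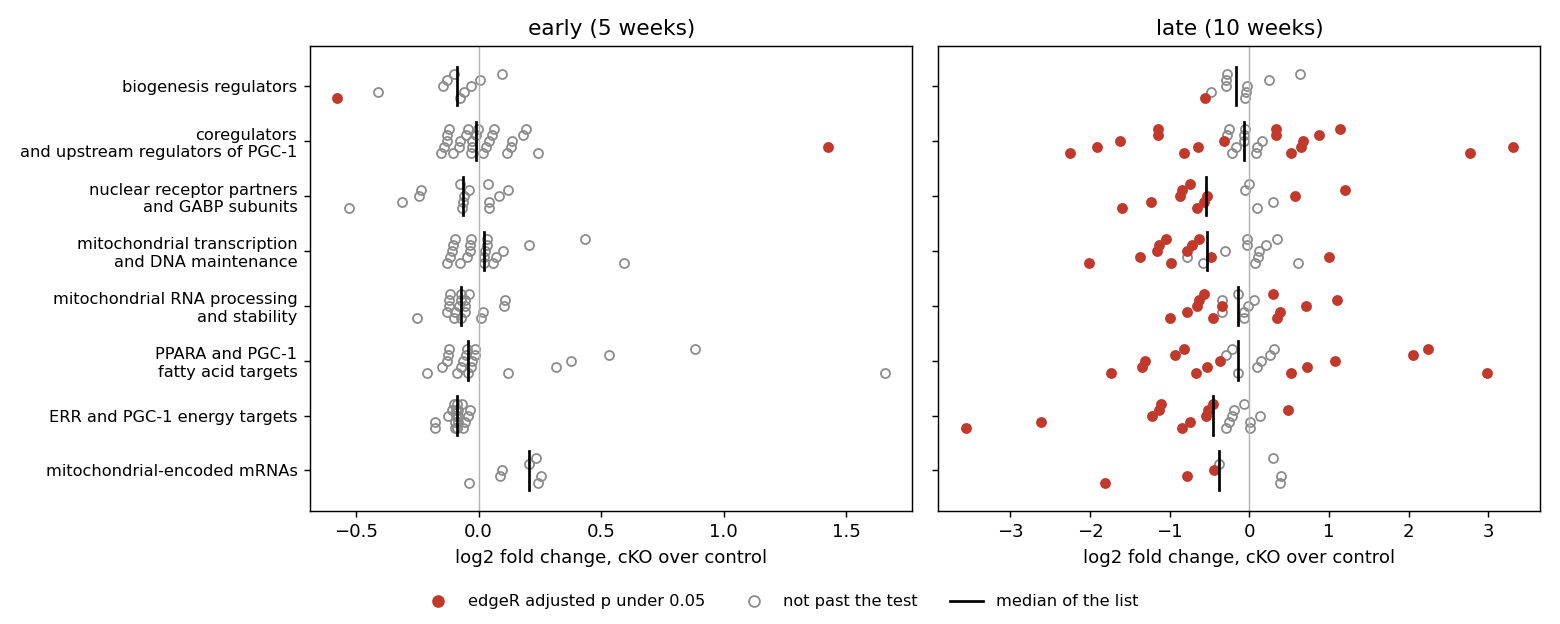
Log2 fold change, cKO over control, of each tested gene of the 10 regulators and the 7 pathway lists, early (left) and late (right), with red points past the edgeR test, open points not past it and a bar at each list's median; the horizontal scales differ. Early, the red points are Ppargc1a and Myc; late, all 10 regulators lie within 0.64 of 0 on either side while genes of the other lists reach from -3.56 to 3.31.

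The mitochondrial-encoded mRNAs are the products of the polymerase encoded by Polrmt. Of 13, 7 were tested. The other 6, mt-Co2, mt-Co3, mt-Atp6, mt-Atp8, mt-Nd3 and mt-Nd4l, did not pass the filter on low counts and had at most 12.99 CPM in any heart. As background, several of these mRNAs are abundant in heart; how reads of these genes were counted is not given in the sources used here, and no change is read from these 6. Mitochondrial-encoded genes made up 25.6% to 29.4% of counts in early cKO hearts and 24.5% to 26% in early controls, and 11.2% to 16% in late cKO hearts and 19.7% to 22.6% in late controls. Late, 3 of the 7 fell (42.9%, against 65% of all genes tested that passed), mt-Co1 (-1.82, adjusted p = 9.41e-05), mt-Nd4 (-0.79, adjusted p = 0.00111) and mt-Cytb (-0.45, adjusted p = 0.0243), and mt-Nd1 gave 0.40 (adjusted p = 0.0708). The members of this list did not move as 1 block. Without late cKO replicate 3, mt-Nd1 (0.52, adjusted p = 0.0171) and mt-Nd2 (0.55, adjusted p = 0.00958) rose, mt-Co1 and mt-Nd4 fell, and mt-Cytb did not pass. Early, none of the 7 passed, and 6 of 7 log2 fold changes were positive. Libraries were made from poly-A RNA, and how tail length entered these values was not tested.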

How the data were processed

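RNA of 14 hearts was sequenced as poly-A selected, single-end TruSeq V2 libraries that do not mark the strand, per the labels' protocols. The authors deposited raw read counts per gene symbol, in 1 table per time. The submitters' processing notes name Trimmomatic 0.36, STAR 2.6.0c and GRCm38; the counting tool is not given in the sources used here, nor are its annotation and strand setting. Totals were 15657298 to 19466469 counts per heart early and 29989076 to 35750964 late. CPM values were computed from the deposited counts with TMM-scaled totals.

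Each time was fitted alone with edgeR 4.0.16 in R 4.3.3 (TMM, filterByExpr with a minimum count of 10 and a minimum total of 15, quasi-likelihood F test, Benjamini-Hochberg adjustment over all genes tested, calls at an adjusted p under 0.05). The difference between times was a contrast over all 14 hearts. Ratios were tested by exact permutation, two-sided. Samples were grouped by title. Nothing in the labels ties each library to its own animal, and p-values therefore measure only the spread between these hearts. No 2 libraries of a group agreed within sampling noise (chi-square per gene 3.9 or more). The 10 members and all lists were chosen with earlier results of these data known.

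Named genes were all members, Fam210a, from each list up to 4 genes with the smallest late p plus any called early, and the 5 genes most like Ppargc1a among those with a mean log2 CPM of at least 3 in both tables. Of the genes selected this way, 1 is not named or described individually. The other genes named were chosen after their values were seen. They were genes called when a heart was left out, rising alone in their list, untested or markers, and further AMPK subunits and receptors. Exon lengths, loci and overlaps are from the GENCODE annotation of GRCm38. Fits were tested on simulated counts. Alternatives were other scalings, no filter, DESeq2 1.42.0, a replicate block, 1 fit of all hearts, hearts left out and, added after the data were seen, limma 3.58.1 voom quality weights and a length slope covariate.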

Additional observations from a re-analysis of the deposited data

Results flagged for a closer look

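The change of 2 members differed between the times by edgeR's genotype-by-time test over 14 hearts. For Nrf1 the late change minus the early change was 0.39 on the log2 scale (adjusted p = 0.00819), and for Polrmt it was -0.39 (adjusted p = 0.00617). Both differed against a background of 61.2% of all genes tested.

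Over the 7 pathway lists as a whole, the same test passed for 77 of 131 genes tested (58.8%), near that background. The genes tested include mt-Co2, which passed (edgeR adjusted p = 0.0061), and mt-Nd3, which did not (edgeR adjusted p = 0.968). Both are near 0 in these tables. The 27 genes of these lists named for the smallest late p of their list, or for an early call, were chosen in a way that favours passing this test, and 25 of them did. Their late change minus early change is given here on the log2 scale as a description. Among coregulators it was 2.64 for Prkab2, 1.90 for Myc, 1.22 for Prkag2 and -1.46 for Perm1, and among receptor partners 1.10 for Thra, -0.51 for Rxra, -1.16 for Rxrg and -1.34 for Nr1d1. In mitochondrial transcription and DNA maintenance it was 0.95 for Tk2, -0.87 for Dguok, -1.32 for Mgme1 and -2.02 for Mterf2. In mitochondrial RNA processing it was 1.24 for Pde12, 0.63 for Elac2, -0.71 for Ptcd3 and -0.91 for Fastkd1. Fatty acid targets gave 1.88 for Acot2 and -1.69 for Cpt2, and ERR targets gave -1.02 for Ndufs1, -1.02 for Idh3b, -2.50 for Mb and -3.46 for Ckmt2. Of the mitochondrial-encoded mRNAs, mt-Cytb gave -0.67, mt-Nd4 -0.86 and mt-Co1 -1.76. The adjusted p of these genes was between 2.15e-11 and 0.000731. Time and table cannot be told apart, so the test compares changes within each table.

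In the early controls, the log2 ratio of Ppargc1a to Ppargc1b was far below the others in replicate 4, at 3.413, where the other control hearts lay between 3.676 and 3.717. That heart was still above every early cKO heart, the highest of which was at 3.127. It was the 1 outlying heart found in 30 groups of 4 hearts examined, and chance alone marks about 1 in 20 such groups.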

How the results depend on the processing

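Of 550 member values under alternatives, 508 kept their side of the threshold and 42 changed call. In 30 the sign differed from that of the reported value. Early, where 83 genes and 1 member were called, the counts were 388 genes and 2 members (Ppargc1a and Ppara) with no filter on low counts, 177 genes with DESeq2, and 162 genes with cKO replicate 4 counted as a control. Leaving out each heart gave 45 to 181 genes and 0 to 1 members. A fit of all 14 hearts called 0 members early (Ppargc1a adjusted p = 0.416). With replicate numbers as a block (replicate block) it was also 0, with Ppargc1a at -0.58 (adjusted p = 0.0586). Numbers did not pair the hearts: correlations of same-numbered deviations were -0.09 to -0.04 early and -0.55 to -0.065 late, and no heart was most like its own number.

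Late, where 1 member was called, the count was 2 with RLE size factors, 3 with total counts, 3 with no filter, 2 with DESeq2, 4 in 1 fit of all hearts, 5 with voom quality weights, 8 with the length slope covariate and 1 to 4 with hearts left out. For the difference between times, 2 in the text, it was 4 with early cKO replicate 4 counted as a control, 4 with the length covariate and 2 to 5 with hearts left out. Nrf1 passed under all 22 alternatives of that test and Polrmt under 21, missing it with no filter (-0.35, adjusted p = 0.0769). The causes were not tested. Both signs occurred for early Ppargc1b, Esrrg, Tfam and Tfb2m, late Ppara, Gabpa and Tfb2m, and the difference of Ppargc1a, Esrrg, Gabpa and Tfb2m. Late quality weights were 0.237 for cKO replicate 3 and 0.875 to 2.57 for the other hearts.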
